A study of Mus musculus with 8 samples.

Results

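Neurturin and its relatives form the glial cell line-derived neurotrophic factor (GDNF) family, and 7 genes of it were followed here: the ligands Nrtn, Gdnf and Artn, the co-receptors Gfra1, Gfra2 and Gfra3, and the receptor kinase Ret. They were taken by gene name from a table of 56748 genes, in which all 7 were found, and 6 of them had enough reads to enter the comparison of 16780 genes. The family was picked for study because Nrtn differed between the genotypes in these same data, so the genotype values of the 7 genes are given as a description, without a test. The hearts came from 3 to 4 month old male and female mice (C56BL in the labels), 7 days after banding of the transverse aorta, an operation that makes the left ventricle pump against high pressure. The libraries labelled CMS7KO came from 4 hearts in which Cre recombinase, driven by the alpha myosin heavy chain promoter of cardiomyocytes, was used to excise Smad7. The libraries labelled ACRE came from 4 hearts that carried the same Cre as a control, so the transgene and the banding were common to both groups and no heart without banding or without Cre was included. Polyadenylated RNA of the whole heart was sequenced, and in such tissue fewer cells of a type and less RNA per cell cannot be told apart.

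GDNF-family ligands are secreted dimers that bind a co-receptor of the GFR-alpha kind, which is anchored in the membrane by a lipid and has no kinase of its own. The complex then gathers and activates Ret, a receptor tyrosine kinase. Each ligand has a preferred co-receptor: GDNF binds GFR-alpha-1, neurturin GFR-alpha-2, artemin GFR-alpha-3 and persephin GFR-alpha-4. In the mouse heart, neurturin acting through GFR-alpha-2 is known as a survival and growth factor for the parasympathetic, cholinergic neurons that slow the beat.

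The targeted gene did not separate the libraries by label. Smad7, an inhibitor of TGF-beta receptor and Smad2/3 signalling, stood at 30.9, 41.9, 38.9 and 43.1 CPM (reads scaled to a common library size by trimmed means) in CMS7KO 1 to 4, against 34.6, 34.5, 32.7 and 23.9 CPM in ACRE 1 to 4. Its values overlapped between the groups (38.7 ± 5.47 CPM in CMS7KO and 31.4 ± 5.07 CPM in ACRE, SD, n = 4 each; log2 fold change 0.30, SE 0.18, edgeR adjusted p = 0.415). The Cre is driven by a cardiomyocyte promoter, so the counts also hold Smad7 reads of other heart cells, and the deleted stretch is not given in the labels. The genotypes are used here as labelled and were not checked by this gene. The libraries held 12920435 to 17199600 counted reads. ACRE 2 and ACRE 4 stood apart, with scores of 63.6 and 76.4 on the first principal component (37.5% of the variance) where the other 6 libraries scored -48.0 to -11.3. By label, the hearts numbered 1 and 2 were male and those numbered 3 and 4 female in both groups, but CMS7KO 3 and ACRE 3 held 9 and 5 reads of Xist and 1332 and 1418 reads of the Y-linked Ddx3y, against their female label. The 12 cardiomyocyte markers, which include Myh6 and Tnnt2, summed to 36587 to 59322 CPM in CMS7KO and to 51182 to 102267 CPM in ACRE, where ACRE 2 and ACRE 4 were the highest 2 libraries, so the labelled tissue carried its defining transcripts.

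Nrtn encodes neurturin and had the highest level of the family per kb of gene length in every library. Its gene lies on chromosome 17, minus strand, from 57058325 to 57064530 in the table's coordinates, whose genome build is not named here. The 250 bases before its RefSeq start are shown because Nrtn was the member whose level followed the genotype labels and because Smad7 acts on Smad proteins, which bind short DNA motifs. They lie at chr17:56757549-56757798 of GRCm38.p6, a different coordinate set from the table's, and read 5′ to 3′ on the minus strand, with capitals for the letters GGCGC and GGCCG on either strand.
Nrtn promoter: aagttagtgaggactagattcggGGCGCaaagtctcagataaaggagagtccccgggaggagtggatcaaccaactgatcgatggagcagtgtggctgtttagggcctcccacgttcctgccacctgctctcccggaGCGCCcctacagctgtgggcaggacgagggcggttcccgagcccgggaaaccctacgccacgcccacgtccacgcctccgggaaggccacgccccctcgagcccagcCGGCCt

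The window was 64.8% G or C. It held GGCGC, or its complement GCGCC, at 2 places, a match found in 32.0% of 32851 RefSeq promoter windows of the same length. It held GGCCG, or its complement CGGCC, at 1 place (30.4% of windows). It held no CAGAC or GTCTG, a longer form of the Smad box, which 42.2% of windows held. It held no GTCTAGAC, the palindromic Smad element, which 0.167% held. The shorter form GTCT does occur in the window, and its share of all windows was not counted. These letters describe the window and say nothing of whether a factor binds there. Of the other members, Gdnf (2 windows), Artn and Gfra1 were in the promoter table, and 1 window of each held CAGAC or its complement.

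The Nrtn transcript level was 78.5, 59.0, 71.6 and 61.5 CPM in CMS7KO 1 to 4, from 1083, 1137, 1133 and 823 reads. In ACRE 1 to 4 it was 27.7, 25.6, 15.2 and 13.3 CPM, from 474, 382, 242 and 138 reads. The lowest CMS7KO library therefore stood above the highest ACRE library, and the groups did not overlap. The means were 67.6 ± 9.04 CPM in CMS7KO and 20.5 ± 7.26 CPM in ACRE (SD, n = 4 each), a ratio of 3.30 and a fitted log2 fold change of 1.79 (SE 0.21). Among the 4064 tested genes at least as abundant as Nrtn on average, 3 had a larger positive log2 fold change, and 154 of all tested genes did. Nrtn was 1 of the 6 genes that edgeR called by genotype, 0.0358% of those tested (3 higher and 3 lower, 0.0179% each, with 15.3% at an unadjusted p under 0.05), and this call is what drew attention to the family. It ended when CMS7KO 1, 2, 3 or 4, ACRE 3 or ACRE 4 was left out, with a log2 fold change of 1.64 to 1.95 over all 8 such fits. Without ACRE 2 and ACRE 4, the libraries that stand apart, the log2 fold change was 1.69 and the call held.

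**Figure D1:**
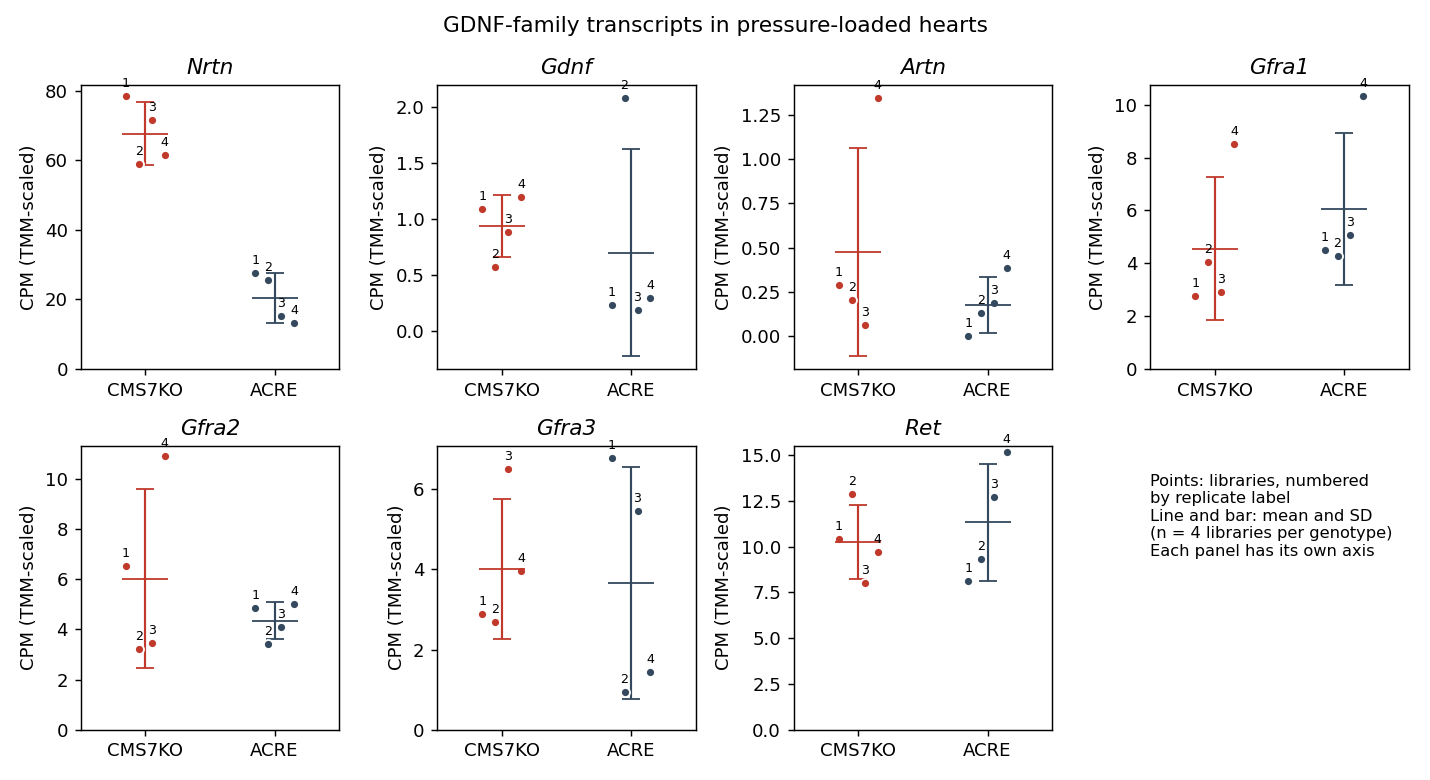
Level of each GDNF-family transcript in CPM (vertical axis, its own scale per gene) in 4 libraries labelled CMS7KO (left) and 4 labelled ACRE (right). Points are libraries numbered by replicate label, and lines with bars give mean and SD. Nrtn sits at 59.0 to 78.5 CPM in CMS7KO and at 13.3 to 27.7 CPM in ACRE, while the groups overlap for the other 6 genes.

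Log2 fold changes over all genes went with the base composition of transcripts. Annotated Nrtn transcript sequence was 72.8% G or C, and 2 of 16468 tested genes with a value were richer. Over 20 equal bins of GC content, the median log2 fold change was -0.08 in the poorest bin, -0.16 in the second poorest and 0.24 in the richest, and the bin median was negative in the 12 poorest bins and positive in the 8 richest. Among the 164 other genes in the richest 1% (at least 62.9% GC), the median was 0.32, the 90th percentile 0.91 and 3 genes, Col9a2, Mdfi and Gpr62, had a larger value than Nrtn. With an offset fitted to GC content and gene length, the log2 fold change of Nrtn was 1.40 and it was no longer called. The offset takes both properties together, Nrtn lay at percentile 7.62 of tested genes by length, and the part of each in the Nrtn level was not tested.

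**Figure D2:**
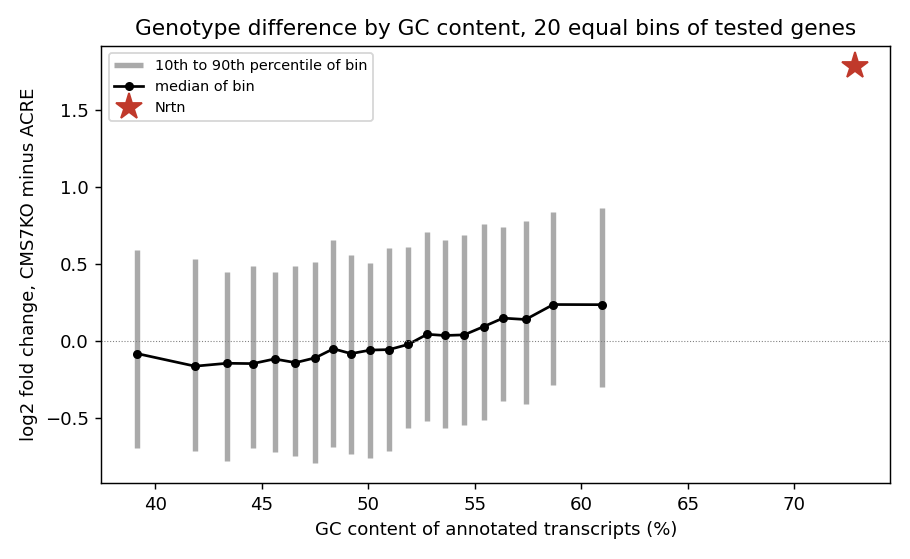
Fitted log2 fold change by genotype (CMS7KO minus ACRE, vertical axis) against GC content of annotated transcripts (%, horizontal axis) for 20 equal bins of tested genes. Dots are bin medians and grey bars the 10th to 90th percentile; the star is Nrtn at 72.8% GC and 1.79, above the 90th percentile of the richest bin (0.87).

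The genes beside Nrtn showed smaller differences. Dus3l, a tRNA dihydrouridine synthase gene that starts 7226 bases to the right, stood at 58.5, 56.3, 62.9 and 46.0 CPM in CMS7KO 1 to 4, against 55.7, 35.4, 56.3 and 35.3 CPM in ACRE 1 to 4. These groups overlapped (log2 fold change 0.29, SE 0.21, edgeR adjusted p = 0.495). Ndufa11, a complex I gene 29183 bases to the left, averaged 346 ± 56.6 CPM in CMS7KO and 264 ± 33.5 CPM in ACRE (SD, n = 4 each), again with overlapping groups (log2 fold change 0.39, SE 0.20, edgeR adjusted p = 0.364). The ratio of Nrtn to Dus3l CPM was 1.05 to 1.34 in CMS7KO and 0.270 to 0.723 in ACRE, with no overlap. Since Nrtn was chosen for its difference and Dus3l differed little, nothing is read from this separation. No gene of the table overlaps the Nrtn interval, so its reads were not shared with an annotated antisense or host gene.

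**Figure D3:**
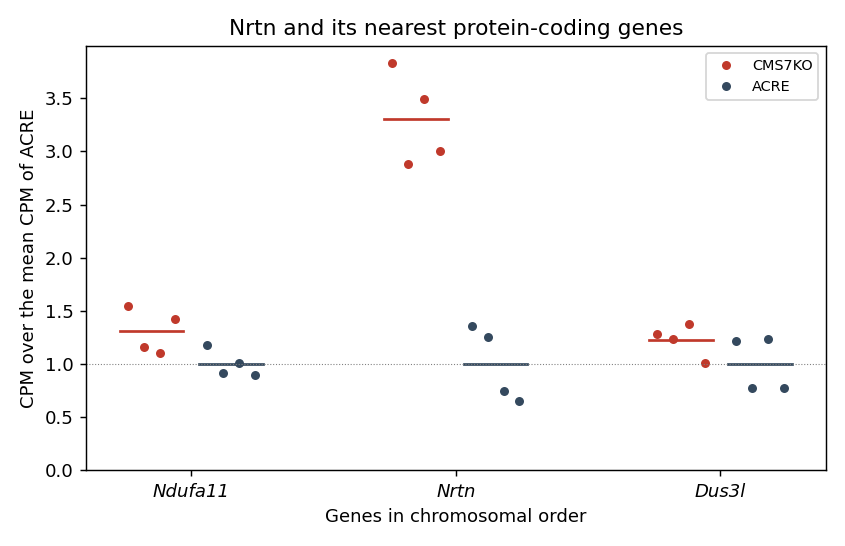
CPM divided by the mean CPM of the ACRE libraries (vertical axis) for Nrtn and the nearest protein-coding gene on each side, in chromosomal order. Each point is a library and each line a group mean; the mean ratio was 3.30 for Nrtn, 1.31 for Ndufa11 and 1.22 for Dus3l.

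The sex label was a contrast that the choice of the family did not use. Nrtn was lower under the female than under the male label by a log2 difference of -0.46 (SE 0.20, edgeR adjusted p = 1.00), and no tested gene was called by sex label (0 of 16780, with 207, or 1.23%, at an unadjusted p under 0.05, and 1 call with DESeq2). In the fit of the 4 combinations, the genotype log2 fold change of Nrtn was 2.22 (SE 0.24) under the female label and 1.36 (SE 0.24) under the male label, with 2 libraries per combination. The difference of 0.86 (SE 0.33) did not pass the threshold (edgeR interaction test, adjusted p = 1.00), and 0 genes were called for it, with 178 (1.06%) at an unadjusted p under 0.05 and 3 calls with DESeq2. Because of the label mismatch in CMS7KO 3 and ACRE 3, these are contrasts of the labels.

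The other ligands were near the limit of detection. Gdnf, whose product prefers GFR-alpha-1, had 15, 11, 14 and 16 reads in CMS7KO 1 to 4, against 4, 31, 3 and 3 reads in ACRE 1 to 4. All 4 CMS7KO libraries were above 3 of the ACRE libraries, and ACRE 2 was above them all, so the groups overlapped. In CPM the means were 0.934 ± 0.275 in CMS7KO and 0.698 ± 0.922 in ACRE (SD, n = 4 each). The log2 fold change was 0.64 (SE 0.80), and 1.98 with ACRE 2 left out, a value that rests on 10 reads in the 3 remaining ACRE libraries. Artn, which encodes artemin, had 4, 4, 1 and 18 reads in CMS7KO 1 to 4, against 0, 2, 3 and 4 in ACRE 1 to 4. Of the 27 Artn reads in CMS7KO, 18 came from CMS7KO 4, and the other 3 libraries were within the range of ACRE. The 0 in ACRE 1 allows up to 3 reads, or 0.176 CPM, counting error only. Artn did not pass the filter on low counts and has no fitted fold change.

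Among the co-receptors, none separated the genotypes. Gfra2, the preferred partner of neurturin, stood at 6.52, 3.22, 3.48 and 10.9 CPM in CMS7KO 1 to 4, against 4.86, 3.42, 4.08 and 5.02 CPM in ACRE 1 to 4. CMS7KO 1 and 4 were above every ACRE library and CMS7KO 2 was below every one. The means were 6.03 ± 3.58 CPM in CMS7KO and 4.34 ± 0.74 CPM in ACRE (SD, n = 4 each), with a log2 fold change of 0.44 (SE 0.39). Gfra1, the co-receptor preferred by GDNF, stood at 2.75, 4.05, 2.91 and 8.52 CPM in CMS7KO 1 to 4, against 4.505, 4.29, 5.09 and 10.3 CPM in ACRE 1 to 4. The library numbered 4 was the highest of both groups, 3 CMS7KO libraries lay below every ACRE library, and the log2 fold change was -0.40 (SE 0.37). For the sex label, Gfra1 had a log2 difference of 0.77, female minus male (SE 0.37, edgeR adjusted p = 1.00). The interval of Gfra1 overlaps Gm16277 on the other strand, which had 0 reads.

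Gfra3, the artemin co-receptor, varied more within ACRE than between genotypes. It stood at 2.90, 2.70, 6.51 and 3.96 CPM in CMS7KO 1 to 4, against 6.79, 0.939, 5.46 and 1.45 CPM in ACRE 1 to 4. ACRE 2 and ACRE 4, the libraries that stand apart, were below all others, and ACRE 1 was above all others. The log2 fold change was 0.05 (SE 0.60), and it was -0.70 without ACRE 2 and ACRE 4 and 0.91 without ACRE 1. In ACRE 2 and ACRE 4 Sox10, a marker of the glial cells that wrap nerve fibres, was also the lowest of ACRE, at 0.738 and 2.41 CPM against 4.39 and 3.83 CPM in ACRE 1 and 3. In CMS7KO 1 to 4 Sox10 stood at 1.52, 4.05, 4.17 and 2.62 CPM, so CMS7KO 1 was below ACRE 4 for Sox10 but not for Gfra3. Over the whole list of 14 Schwann and glial cell markers, the summed level was 199 to 272 CPM in CMS7KO, against 175 and 171 CPM in ACRE 2 and 4 and 197 and 215 CPM in ACRE 1 and 3, and no marker was at 0 in all libraries. The myelin gene Pmp22 made up a large part of these sums and was not low in ACRE 2. It stood at 79.7, 95.2, 97.6 and 77.6 CPM in ACRE 1 to 4. The part of glial cells in the Gfra3 level was not tested.

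Ret, the shared receptor kinase, stood at 10.4, 12.9, 8.02 and 9.71 CPM in CMS7KO 1 to 4, against 8.13, 9.32, 12.7 and 15.2 CPM in ACRE 1 to 4. The groups overlapped, with ACRE 4 above every CMS7KO library, at 10.3 ± 2.01 CPM in CMS7KO and 11.3 ± 3.20 CPM in ACRE (SD, n = 4 each; log2 fold change -0.11, SE 0.25). Under the male label both CMS7KO libraries were above both ACRE libraries (log2 fold change 0.42, SE 0.28), and under the female label both were below (-0.65, SE 0.28). The difference of -1.07 (SE 0.40) between these did not pass the threshold (edgeR interaction test, adjusted p = 1.00). As a description over 8 libraries, which share their scaling, log2 CPM of Ret and Nrtn had a Pearson r of -0.48, and -0.86 for deviations from each genotype's mean. The corresponding values with Nrtn were 0.57 and 0.47 for Gdnf, -0.56 and -0.65 for Gfra1, 0.23 and -0.08 for Gfra2, and 0.27 and 0.11 for Gfra3.

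Set against each other per kb of gene length, Nrtn was far above its receptors. In CMS7KO it stood at 66.1 ± 8.84 CPM per kb, followed by Gfra3 at 2.01 ± 0.88, Gfra2 at 1.70 ± 1.01, Ret at 1.52 ± 0.30 and Gfra1 at 0.832 ± 0.494 (SD, n = 4). In ACRE it stood at 20.01 ± 7.10 CPM per kb, followed by Gfra3 at 1.83 ± 1.45, Ret at 1.67 ± 0.47, Gfra2 at 1.23 ± 0.21 and Gfra1 at 1.11 ± 0.52. The order among the co-receptors and Ret was within their spread in both groups. Gdnf stood at 0.254 ± 0.075 CPM per kb in CMS7KO and 0.190 ± 0.251 in ACRE, and Artn at 0.198 ± 0.244 in CMS7KO and 0.0737 ± 0.0666 in ACRE, 2 genes whose values overlapped in both groups. Among all tested genes ranked by CPM per kb, Nrtn lay at percentile 96.9 in CMS7KO and 87.8 in ACRE, and the 5 other tested members lay between percentiles 5.73 and 37.8. Length-scaled Nrtn was 19.5 to 71.3 times Gfra2 in CMS7KO libraries and 9.18 to 25.9 times Gfra2 in ACRE libraries. Nrtn took 63.3 to 76.6% of the family's reads in CMS7KO and 29.0 to 55.9% in ACRE, and in each of the 8 libraries it took over 90% of the reads of the 3 ligands (92.0 to 99.2%).

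**Figure D4:**
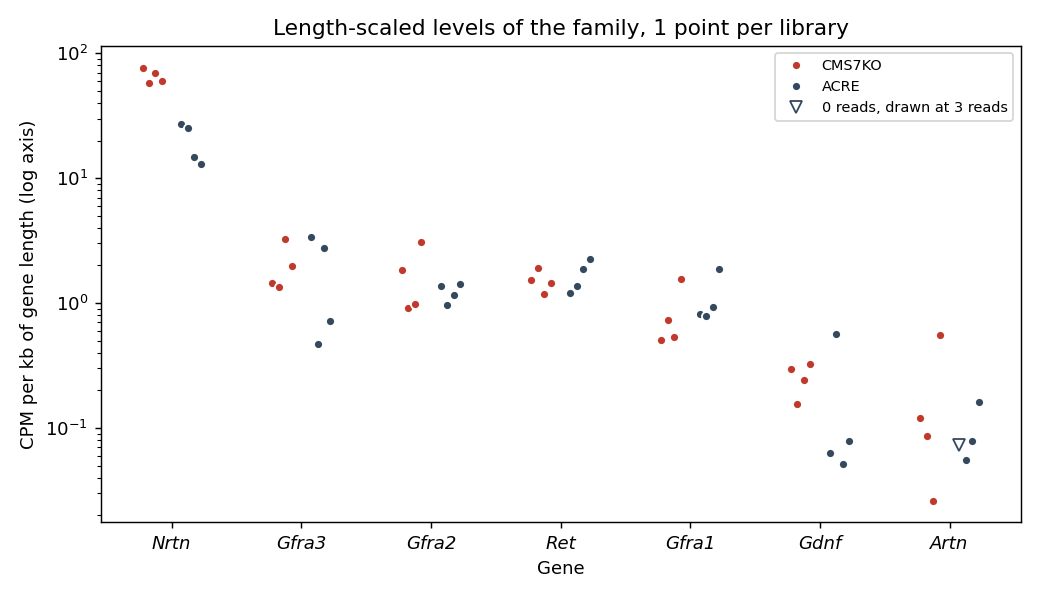
CPM per kb of gene length (log axis) of the 7 genes, with 1 point per library, CMS7KO left of ACRE within each gene. Nrtn lies at 57.7 to 76.7 in CMS7KO and 13.02 to 27.1 in ACRE, above every other gene; the triangle marks Artn in ACRE 1, which had 0 reads and is drawn at the level of 3 reads.

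Of the 6 tested members, 4 had a positive and 2 a negative log2 fold change, with a median of 0.25, where the median of all tested genes was -0.01 and 49.4% were positive. Nrtn was the 1 member called and the 1 member whose groups did not overlap, a state found for 9.59% of tested genes in either direction (5.41% with CMS7KO above and 4.18% below). Since the family was chosen on this contrast, nothing is read from these counts.

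Persephin and GFR-alpha-4, the ligand and co-receptor that complete the family, were not among the 7 genes chosen. Gfra4 stood at 1.16, 0.259, 1.01 and 1.64 CPM in CMS7KO 1 to 4, against 3.57, 2.35, 2.20 and 5.70 CPM in ACRE 1 to 4. All CMS7KO libraries were below all ACRE libraries, and the log2 fold change of -1.82 (SE 0.51) did not pass the threshold in edgeR (adjusted p = 0.224). It passed with DESeq2 (adjusted p = 0.0255) and without the low-count filter (edgeR adjusted p = 0.00133), and had an adjusted p of 0.0981 to 0.567 under the other alternatives. Counts were low, at 5 to 22 reads in CMS7KO and 35 to 61 reads in ACRE. Pspn, the persephin gene, had 5, 6, 0 and 2 reads in CMS7KO 1 to 4, against 7, 9, 6 and 4 in ACRE 1 to 4. In CPM its groups did not overlap (0 to 0.362 in CMS7KO and 0.377 to 0.603 in ACRE), but it was too low to be tested. Gfral, the Gdf15 receptor gene, had no read in any library. Ncam1, a cell adhesion molecule that can serve GDNF as an alternative receptor, averaged 11.1 ± 2.06 CPM in CMS7KO and 8.19 ± 6.17 CPM in ACRE, where ACRE 2 held 17.4 CPM. Gas1, a protein related to GFR-alpha, averaged 28.3 ± 15.6 CPM in CMS7KO and 23.6 ± 3.26 CPM in ACRE, and Sdc3, a syndecan that binds GDNF-family ligands, 169 ± 17.3 CPM in CMS7KO and 151 ± 25.7 CPM in ACRE (SD, n = 4 each). Of the 5 tested genes in this list 3 were higher and 2 lower, with a median log2 fold change of 0.16. It was -0.22 without CMS7KO 2, and -0.13 with the GC and length offset. None of the 5 was called by edgeR, which called 0.0358% of all tested genes.

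Across 16 lists of pathway genes and cell type markers, 178 of 206 genes were tested by genotype. Of these, 0 were called by edgeR, which called 0.0358% of all tested genes. An unadjusted p under 0.05 was found for 40 of them, against 15.3% of all tested genes. The smallest edgeR adjusted p among the 178 genes was 0.106. DESeq2 called 17 of them, 15 higher and 2 lower, against 2.88% of all genes it tested, among them Krt18 (adjusted p = 1.21e-08), Trem2 (0.000483), Uchl1 (0.00426), Pik3r1 (0.0205), Ptn (0.0214), Shc2 (0.0220) and Mdk (0.0237). Of these 178 genes, 21 lay entirely higher and 5 entirely lower in CMS7KO, 14.6% against 9.59% of all tested genes. The adaptors and enzymes that carry the Ret signal split evenly, 11 higher and 10 lower with a median log2 fold change of 0.02. That median was -0.13 without ACRE 2 and ACRE 4, -0.10 without ACRE 2 and 0.15 without ACRE 1. Shc2, an adaptor of receptor kinases, stood at 12.3 ± 3.05 CPM in CMS7KO and 6.38 ± 0.87 CPM in ACRE (edgeR adjusted p = 0.205), and the kinase Src at 11.3 ± 1.34 CPM in CMS7KO and 7.97 ± 1.85 CPM in ACRE (edgeR adjusted p = 0.323). Pik3r1, a regulatory subunit of phosphoinositide 3-kinase, averaged 53.7 ± 8.29 CPM in CMS7KO and 136 ± 74.0 CPM in ACRE, where ACRE 2 and 4 held 197 and 204 CPM and ACRE 1 and 3 held 66.5 and 78.6 CPM. The catalytic subunit Pik3ca and the ubiquitin ligase Cbl, which marks activated receptor kinases for removal, were also entirely lower, at log2 fold changes of -0.30 (SE 0.14) and -0.25 (SE 0.13). Of 15 tested target and feedback genes of Ret signalling, 7 were higher and 8 lower (median -0.00).

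Neurotrophins, another family of secreted factors that keep neurons alive, showed no separation by genotype. Of 12 tested neurotrophin ligand and receptor genes, 7 were higher and 5 lower, with a median log2 fold change of 0.27 (-0.05 without ACRE 2 and ACRE 4) and 0 entirely higher or lower. Ntf3, neurotrophin-3, averaged 6.63 ± 1.54 CPM in CMS7KO and 5.03 ± 1.99 CPM in ACRE (SD, n = 4 each). Bdnf, brain-derived neurotrophic factor, averaged 3.27 ± 0.76 CPM in CMS7KO and 4.97 ± 3.19 CPM in ACRE, where ACRE 4 held 9.75 CPM. Of 24 tested neurotrophic and axon guidance factors, 11 were higher and 13 lower (median -0.03). Without ACRE 2 and ACRE 4, 17 were higher and 7 lower (median 0.21). The heparin-binding growth factors Mdk and Ptn were entirely higher, at 6.15 ± 1.84 CPM in CMS7KO and 2.20 ± 1.196 CPM in ACRE for Mdk, and at 19.8 ± 11.99 CPM in CMS7KO and 6.82 ± 1.505 CPM in ACRE for Ptn (edgeR adjusted p = 0.218 and 0.222). Nrg1, neuregulin-1, stood at 3.51 ± 1.72 CPM in CMS7KO and 0.874 ± 0.565 CPM in ACRE (edgeR adjusted p = 0.282). It had 44, 116, 35 and 35 reads in CMS7KO 1 to 4, against 1, 20, 18 and 10 in ACRE 1 to 4. Plxna2, a semaphorin receptor, was entirely lower (log2 fold change -0.40, SE 0.17).

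The neurons that neurturin serves left few transcripts in these libraries. Chat, the acetylcholine-synthesising enzyme of cholinergic neurons, had reads in CMS7KO 2 and 3 and ACRE 3 alone. These were 7, 1 and 1 reads, or 0.363, 0.0632 and 0.0628 CPM. Th, the first enzyme of noradrenaline synthesis, had 0 reads in all 8 libraries. Of 11 cholinergic neuron markers 3 could be tested (Ache, Phox2a and Hand2), and Slc18a3 and Chrna3 had no read. The cholinergic list summed to 36.1 to 48.7 CPM in CMS7KO and 35.4 to 43.5 CPM in ACRE, and the 8 sympathetic markers to 12.8 to 18.8 CPM in CMS7KO and 17.3 to 19.8 CPM in ACRE. Pan-neuronal markers summed to 57.7 to 67.8 CPM in CMS7KO and 33.7 to 42.8 CPM in ACRE without overlap. Most of the sum in each CMS7KO library was the single gene Uchl1, and without it the sums of the groups would overlap. Of the 8 tested markers, 7 were higher (median log2 fold change 0.63). That median was 0.97 without ACRE 3, 1.02 without ACRE 3 and CMS7KO 3, 0.92 with the replicate block and 1.22 with limma voom. With the GC and length offset it was 0.46. Without ACRE 2 and ACRE 4, 5 of the tested markers were higher and 3 lower (median 0.80). Uchl1, a ubiquitin hydrolase and the 1 marker of the list whose groups did not overlap, stood at 41.4, 34.5, 41.0 and 35.6 CPM in CMS7KO 1 to 4, against 15.3, 28.2, 10.7 and 14.7 CPM in ACRE 1 to 4 (log2 fold change 1.19, SE 0.25, edgeR adjusted p = 0.183). Chrm2, the muscarinic receptor through which acetylcholine slows cardiomyocytes, stood at 32.5, 19.9, 23.8 and 33.2 CPM in CMS7KO 1 to 4, against 25.9, 136, 26.5 and 123 CPM in ACRE 1 to 4. The high values were those of ACRE 2 and ACRE 4, and ACRE 1 and 3 lay within the range of CMS7KO. Of the 9 genes of cholinergic signalling in cardiomyocytes 3 were higher and 6 lower (median -0.29), with 0 entirely higher or lower.

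**Figure D5:**
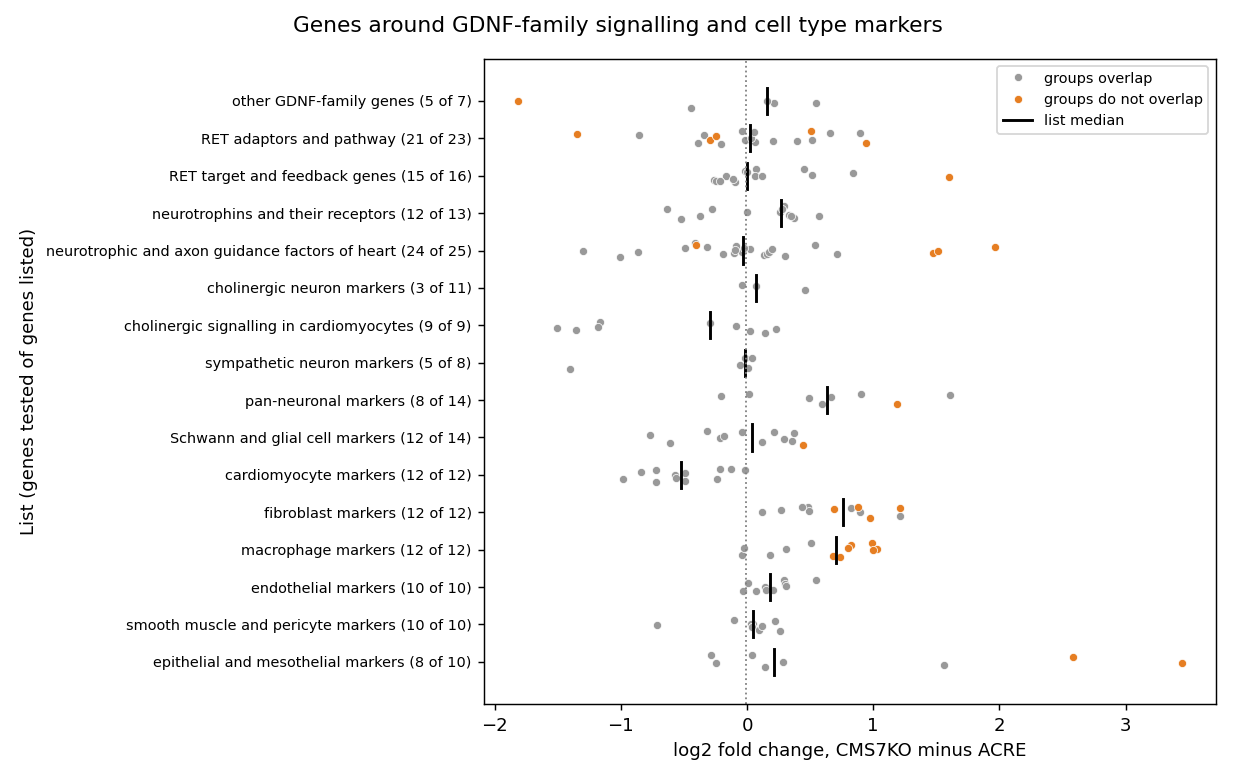
Fitted log2 fold change by genotype (CMS7KO minus ACRE, horizontal axis) of each tested gene in 16 lists, with the number tested of the number listed. Orange points are genes whose groups do not overlap, black bars list medians and the dotted line the median of all tested genes (-0.01). Gfra4 is the leftmost point of the first list, at -1.82.

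Markers of other heart cells differed in how they stood by genotype label, with 0 called by edgeR (0.0358% of all tested genes were called). DESeq2, which called 2.88% of all genes it tested, called some of these markers, among them Krt18 (adjusted p = 1.21e-08), Trem2 (0.000483), Meox1 (0.00588), C1qc (0.00865) and Krt8 (0.0105). It also called C1qb (0.0235), Tcf21 (0.0309), Dcn (0.0319) and Cx3cr1 (0.0343). Over all tested genes, 5.41% lay entirely higher in CMS7KO and 4.18% entirely lower. All 12 fibroblast markers had a positive log2 fold change (median 0.76), 4 of them with no overlap (Tcf21, Col1a1, Dcn and Meox1), and the list summed to 4390 to 8221 CPM in CMS7KO and 3541 to 4133 CPM in ACRE. Of 12 macrophage markers 10 were higher and 2 lower (median 0.71), and 7 had no overlap (C1qa, C1qb, C1qc, Cd68, Cx3cr1, Trem2 and Fcgr1). The macrophage list summed to 692 to 830 CPM in CMS7KO and 346 to 594 CPM in ACRE. All 12 cardiomyocyte markers had a negative log2 fold change (median -0.53, and -0.04 without ACRE 2 and ACRE 4) with overlapping groups. Of 8 tested epithelial and mesothelial markers 6 were higher and 2 lower (median 0.22, but 2.54 without ACRE 2 and ACRE 4, and 1.28 without ACRE 4), with the keratin genes Krt8 and Krt18 entirely higher. The list summed to 27.4 to 29.3 CPM in CMS7KO and 13.7 to 19.8 CPM in ACRE. Krt18 averaged 7.51 ± 0.83 CPM in CMS7KO and 0.757 ± 0.727 CPM in ACRE (SD, n = 4 each). Krt8 averaged 2.42 ± 0.91 CPM in CMS7KO and 0.433 ± 0.520 CPM in ACRE. These ACRE levels rest on few reads, at 11, 27, 3 and 4 for Krt18 and 3, 18, 4 and 1 for Krt8 in ACRE 1 to 4. Without Krt8 and Krt18 the sums of the groups would overlap. The Schwann and glial list had 6 higher and 6 lower genes among 12 tested (median 0.04), with the myelin gene Pmp22 entirely higher. Endothelial markers summed to 3250 to 4035 CPM in CMS7KO and 2020 to 4497 CPM in ACRE. Of 10 tested, 9 were higher and 1 lower (median 0.18), but 1 was higher and 9 lower without ACRE 2 and ACRE 4 (median -0.24). Smooth muscle and pericyte markers summed to 1838 to 2132 CPM in CMS7KO and 1878 to 2274 CPM in ACRE. Of 10 tested, 8 were higher and 2 lower (median 0.04), but 3 were higher and 7 lower without ACRE 2 and ACRE 4 (median -0.20). In either list 0 genes were entirely higher or lower. The part of these cell types in the Nrtn level was not tested.

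By pattern over the 8 libraries, the genes most like Nrtn were named by Pearson r of log2 CPM among 10499 protein-coding genes of at least 5 CPM. The highest r belonged to Fermt3 (kindlin-3, an integrin activator of blood cells, r = 0.98), Nrbp2 (0.98), the epithelial transcription factor Grhl1 (0.98), Evi2a (0.97) and Tsen54, a subunit of the tRNA splicing endonuclease (0.97). Fermt3 stood at 20.4, 19.5, 22.2 and 20.4 CPM in CMS7KO 1 to 4, against 16.1, 13.7, 11.5 and 10.1 CPM in ACRE 1 to 4. Like Nrtn, it was highest in ACRE 1 and lowest in ACRE 4 among the controls. The lowest r belonged to the kinase Tnik (-0.97), the ubiquitin ligase Rnf144b (-0.97), Zfp664 (-0.97), Smyd4 (-0.97) and Tarbp1 (-0.97). Tnik stood at 12.1, 14.6, 12.8 and 12.5 CPM in CMS7KO 1 to 4, against 28.6, 25.3, 29.5 and 37.1 CPM in ACRE 1 to 4. For all 10 genes the groups did not overlap (9.59% of all tested genes), which follows from choosing them by likeness to Nrtn, and nothing is read from it.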

How the data were processed

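Polyadenylated RNA of 8 hearts was sequenced. The deposited table holds whole-number read counts per gene, 1 column per heart, not normalized. HTSeq 0.6.1, TopHat2 2.0, CASAVA and Cufflinks 2.1.1 are listed, without roles, in the submitters' processing notes, as are GRCm38.p6 and mm10. No source used here gives the strand setting or annotation. Of 52073 identifiers shared with GENCODE M21, 2.85% had the same start, so the table's build is not named. Gene lengths and coordinates (other columns) are those deposited in the table.

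Counts were analysed with edgeR 4.0.16 in R 4.3.3. The alternatives used DESeq2 1.42.0, limma 3.58.1 voom, other scaling, no filter, no sex label, a replicate block, a GC offset and omitted libraries. Low genes were removed by filterByExpr on genotype and sex label, libraries scaled by TMM, and the genotype effect, adjusted for sex label, was tested with the robust quasi-likelihood test of edgeR, Benjamini-Hochberg adjusted over 16780 genes at 0.05. SE is the log2 fold change over the square root of F. Log2 CPM used a prior count of 2. Fits were tested on simulated data. Replicate pairs differed beyond sampling noise (chi-square per degree of freedom at least 17.5). The labels call the 4 samples per condition independent. Family members and gene lists were chosen with earlier results of these data known. The rule for named genes took every member, genes of the lists whose groups did not overlap, preset defining genes, neighbours and the 5 highest and 5 lowest correlations with Nrtn; some of these are not reported here. Intervals and count floors cover counting error only. Promoters are RefSeq, GRCm38.p6.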

Additional observations from a re-analysis of the deposited data

Results flagged for a closer look

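In 11 of 110 groups of 4 libraries checked (55 genes), 1 library stood far from the other 3 by Dixon's test at the 95% level. Chance gives about 1 in 20 for independent, normally distributed values. These genes share their libraries, some were chosen by their values and some have very few reads, so nothing is read from the number of flags. Among the family members, Gdnf stood at 2.08 CPM in ACRE 2 (31 reads), against 0.188 to 0.290 CPM in the other ACRE libraries, and Gfra1 at 10.3 CPM in ACRE 4, against 4.29 to 5.09 CPM. Of the related genes, Pspn stood at 0.603 CPM in ACRE 2 (9 reads), Bdnf at 9.75 CPM in ACRE 4, Ncam1 at 17.4 CPM in ACRE 2 and Chat at 0.0628 CPM in ACRE 3, which is 1 read. Mdk was high at 8.87 CPM in CMS7KO 2. Of the marker genes, C1qc was low at 36.5 CPM in ACRE 4, Krt8 high at 1.21 CPM in ACRE 2 and Cd68 high at 42.0 CPM in CMS7KO 4. Smyd4, named for its pattern, stood at 6.35 CPM in CMS7KO 4, against 5.29 to 5.36 CPM in the others. Of the 11 libraries so placed, 7 were ACRE 2 or ACRE 4, which stand apart over all genes.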

How the results depend on the processing

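The log2 fold change of Nrtn by genotype was positive under all 17 alternatives, at 1.40 to 1.95. Its call ended with the replicate block (1.78), with the GC and length offset (1.40), without ACRE 3 and CMS7KO 3 (1.63) and in 6 of the 8 fits that left out 1 library (1.64 to 1.95 over all 8). The GC and length offset and the fit without ACRE 3 and CMS7KO 3 were added after seeing the data. The 6 genes called by genotype became 484 with DESeq2, 1368 without the low-count filter, 175 without ACRE 2 and ACRE 4, 1 without ACRE 3 and CMS7KO 3 and 0 to 17 with 1 library left out. Deviations of same-numbered hearts from their group means had correlations of -0.19 to 0.20. CMS7KO 3 and 4 correlated best with the ACRE library of their own number, and CMS7KO 1 and 2 with ACRE 2 and 3. Whether the replicate numbers pair the hearts is not settled by these values. The replicate block left 3 calls. Calls by sex label were 1 with DESeq2 and 70 without the filter, and by interaction 3, 8 and, with 1 library left out, 0 to 1. The causes were not tested. Of the other members and Gfra4, 100 of 102 values moved by less than the spread between libraries, and the other 2 were Gdnf without ACRE 2 (1.98) and without ACRE 2 and 4 (2.08). Gfra4 was not called in the main comparison (edgeR adjusted p = 0.224) but was with DESeq2 (0.0255) and without the filter (0.00133). Of 272 list medians, 252 moved by less than that spread. Gdnf, Artn and Pspn, at 0 to 31 reads per library, allow no firm comparison at this depth.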
